A study of Mus musculus with 98 samples.

Results

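A group of 7 genes of lymphocyte homing and lymphoid organization was followed through blood and spleen in 3 mouse models of injury: the chemokine receptors Ccr7, Cxcr5 and Cxcr4, the transcription factor Klf2, the cytokine subunit Ltb, and the chemokines Cxcl13 and Ccl19. The members were all probe sets that the platform's gene table maps to these 7 symbols. They are 8 probe sets of the 22690 on the array, of which 22626 are not controls of the manufacturer. Ccr7, Cxcr5, Cxcr4, Klf2 and Ltb have 1 probe set each, and Cxcl13 has 2, 1417851_at and 1448859_at. The Ccl19 probe set is mapped to 10 gene symbols, so its signal cannot be told apart from that of the other genes it maps to. All 8 passed the filter on low values in both tissues.

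Lymphocytes enter and move through lymphoid organs by following chemokines. Ccr7 binds Ccl19 and Ccl21 and guides naive T cells and mature dendritic cells into T cell zones, and Cxcr5 binds Cxcl13 and guides B cells into follicles. Cxcr4 binds Cxcl12 and retains immature and memory leukocytes in bone marrow and other niches, and Klf2 keeps naive T cells circulating by maintaining the egress receptor S1pr1 and L-selectin. Ltb encodes the membrane-bound part of the lymphotoxin that lymphocytes present to the lymphotoxin beta receptor on stroma, a signal that sustains Cxcl13 and Ccl19 production and the layout of the spleen.

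RNA of 98 samples was measured on 1-colour Affymetrix arrays, 64 from blood leukocytes and 34 from spleen of mice. The mice belonged to 3 models: a burn, an LPS infusion (lipopolysaccharide, from the wall of bacteria), or trauma-hemorrhage. Each title carries a code, x or c, which the labels do not explain and which is compared here as coded. It also carries a letter, which the labels of blood samples give as E for the injury or infusion and A for sham, and all spleen titles carry E. Both letters occur with both codes in blood. In burn, LPS and trauma-hemorrhage blood, x minus c gave 2857, 4160 and 8203 calls among 15838 probe sets, and E minus A gave 0, 0 and 3. What the letters stand for rests on the labels alone, and what the codes stand for is not given. Neither was tested. Burn blood had 9 x arrays (5 of letter E, 4 of A) and 11 c arrays (6 of E, 5 of A). LPS blood had 10 x arrays (5 of each letter) and 12 c arrays (6 of each). Trauma-hemorrhage blood had 11 arrays of each code (6 of E, 5 of A). Burn spleen had 6 x and 5 c arrays, LPS spleen 6 of each code, and trauma-hemorrhage spleen 5 x and 6 c arrays. The labels call the burn spleen samples leukocytes from spleen, and those of the other models spleen. LPS spleen titles carry a version mark. No strain, age, sex, dose or time is given in the labels used here. The labels do not tie the arrays of a group to separate animals, so a p-value reflects the spread among these samples alone, and that spread may be technical.

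Values are deposited intensities, with a floor that differed between sets (a set is 1 model in 1 tissue): 9.68 in burn spleen was the lowest and 32.5 in LPS blood the highest, and levels are not compared between sets. In burn blood, 2 c arrays of letter E, replicates 4 and 5, stood apart, with summed intensities of 15 neutrophil probe sets of 61157 and 59968, against 7027 to 15079 in the other c arrays and 24274 to 40395 in x arrays. The log2 ratio of 3' to 5' beta-actin control signal, a measure of RNA integrity, separated the codes in LPS blood, at 1.07 ± 0.105 in x arrays and 1.58 ± 0.0587 in c arrays (SD, n = 10 and 12). It also separated them in trauma-hemorrhage blood, at 1.42 ± 0.191 in x arrays and 1.99 ± 0.135 in c arrays (SD, n = 11 each). Fits with this ratio as a covariate are given beside the members they bear on. No probe set of the B and T cell markers was at the floor in all arrays of a set. In blood, 17 of 20 B cell and 16 of 21 T cell probe sets passed the filter on low values. In these bulk samples, fewer cells of a type and less RNA per cell cannot be told apart.

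The first question was which members differed between x and c in each set. A difference is x minus c in log2(intensity + 16), with its standard error (SE), and a member is called where limma's p, adjusted by the Benjamini-Hochberg method over 15838 probe sets, is at most 0.05. In burn blood, 1 of the 8 member probe sets was called higher and 4 lower, where 7.65% of all probe sets were called higher and 10.4% lower. In LPS blood, 3 were called higher and 0 lower, against 13.5% and 12.8% of all probe sets. In trauma-hemorrhage blood, 0 were called higher and 1 lower, against 21.3% and 30.5%. In burn spleen, 1 was called higher and 1 lower, against 9.65% and 7.92%. In LPS spleen none was called, against 2.39% higher and 0.909% lower. The unadjusted p of limma was under 0.05 there for 2 members, Klf2 and Cxcr4. In trauma-hemorrhage spleen, 1 was called higher and 3 lower, against 10.7% and 16.7%. The median difference of the 8 was -0.48 in burn blood, 0.18 in LPS blood, 0.08 in trauma-hemorrhage blood, -0.12 in burn spleen, and -0.09 in both other spleen sets, while the median of all probe sets lay between -0.041 and -0.0022 in every set.

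**Figure D1:**
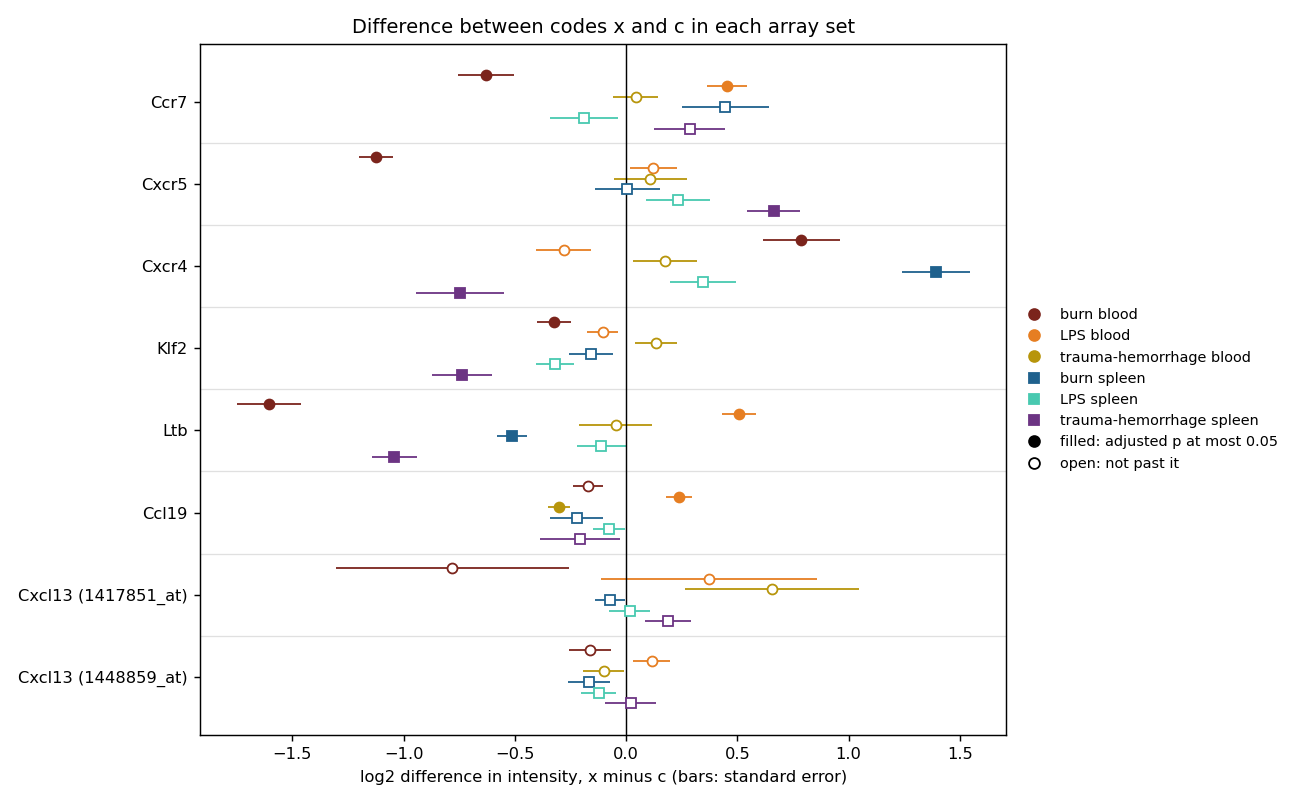
Difference between x and c arrays of each member in each of the 6 sets, in log2 intensity with bars of 1 standard error; circles are blood, squares are spleen, and filled symbols have an adjusted p of at most 0.05. Ltb spans from -1.60 in burn blood to 0.51 in LPS blood, and Cxcr4 from -0.75 in trauma-hemorrhage spleen to 1.39 in burn spleen.

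Ltb was called in 4 of the 6 sets, more than any other member. Its promoter window and those of Klf2 and Cxcr4 are shown because these 3 genes were called in spleen as well as blood and have an entry in the promoter table. The window runs from 250 bases before to 50 after the start of the gene in RefSeq, assembly GRCm38.p6. Capitals mark matches, on either strand, to 7 motifs searched by letter. These were TATAAA, known as the TATA box, GGGCGG (GC box), AGAACA (core of the glucocorticoid response element), GGGACTTTC (NF-kB core), TAAATTTA (MEF2 core), TGACTCA (AP-1 site) and GGAAGT (ETS core). A match describes letters only. The Ltb window, chr17:35194257-35194556 on the plus strand, holds 1 match, to the NF-kB core on the opposite strand, a motif that 0.353% of 32851 promoters hold:
Ltb: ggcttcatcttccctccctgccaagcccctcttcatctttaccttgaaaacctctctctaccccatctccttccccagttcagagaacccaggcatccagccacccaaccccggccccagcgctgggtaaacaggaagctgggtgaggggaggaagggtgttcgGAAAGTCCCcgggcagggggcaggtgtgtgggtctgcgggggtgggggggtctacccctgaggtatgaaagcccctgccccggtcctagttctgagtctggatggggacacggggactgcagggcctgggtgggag

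In burn blood, Ltb had a lowest, median and highest intensity of 229.6, 310.1 and 495 in 9 x arrays, against 548, 887 and 1591 in 11 c arrays. Every x array lay below every c array, whichever letter it carried. The difference was -1.60 ± 0.14 (3.04-fold lower in x, limma, adjusted p = 2.1e-07). Within letter E it was -1.39 ± 0.16 (adjusted p = 6.4e-04) and within letter A it was -1.82 ± 0.23 (adjusted p = 2.4e-04).

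In burn spleen, Ltb intensity was 1010.2, 1024, 1131, 1208, 1238 and 1256 in x arrays, against 1355, 1589, 1606, 1662 and 1796 in c arrays. The codes again did not overlap, and the difference was -0.51 ± 0.07 (limma, adjusted p = 7.1e-05). In trauma-hemorrhage spleen, Ltb intensity was 321, 381, 424, 438 and 502 in x arrays, against 762, 829.2, 871, 892, 951 and 983 in c arrays. All 5 x arrays lay under the lowest c array, and the difference was -1.04 ± 0.10 (2.06-fold lower in x, limma, adjusted p = 2.6e-06). In LPS spleen the values overlapped, from 242 to 362 in x arrays and from 247 to 358 in c arrays (-0.11 ± 0.11, adjusted p = 0.883).

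Ltb went the other way in LPS blood, where it was higher in x. The lowest, median and highest intensities were 182, 256 and 314 in 10 x arrays, against 141, 171 and 202 in 12 c arrays, and 9 of the x arrays lay above every c array. The difference was 0.51 ± 0.07 (limma, adjusted p = 3.1e-05). With the actin ratio as a covariate it was -0.031 ± 0.22 (adjusted p = 0.941), in a set where that ratio does not overlap between the codes, so the codes and RNA integrity cannot be told apart. In trauma-hemorrhage blood, Ltb ran from 276 to 644 in x arrays and from 251 to 767 in c arrays, and the difference of -0.05 ± 0.16 was not past the threshold (adjusted p = 0.825).

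**Figure D2:**
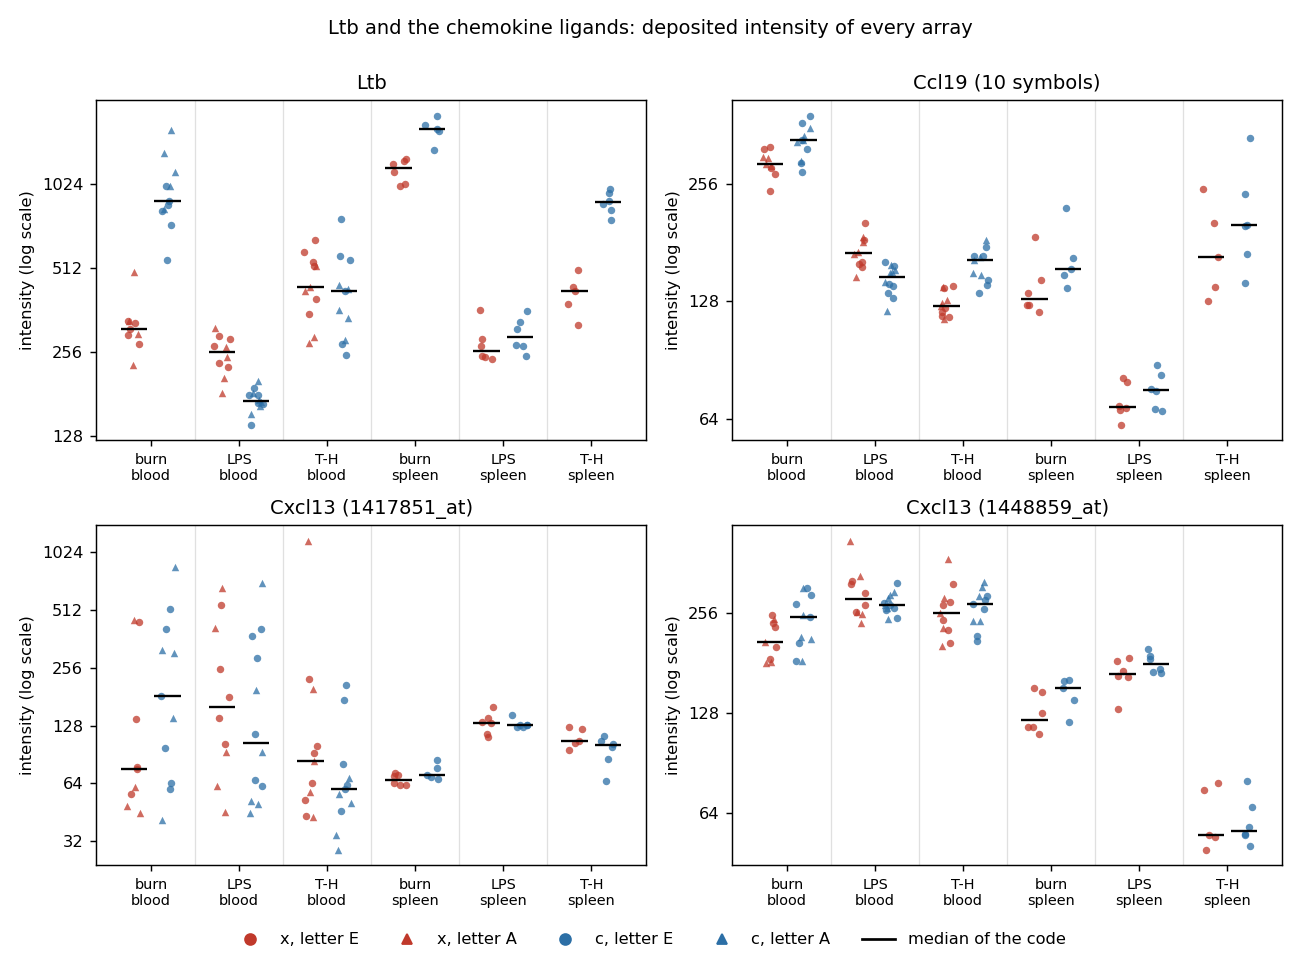
Deposited intensity (log scale) of Ltb, the Ccl19 probe set and both Cxcl13 probe sets in every array, x left of c in each set, with circles for letter E, triangles for letter A and a line at the median of each code. Ltb does not overlap between the codes in burn blood, burn spleen and trauma-hemorrhage spleen. Cxcl13 probe set 1417851_at spreads from 28.9, the rounded floor of trauma-hemorrhage blood, to 1177 among blood arrays.

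Among all members, Cxcr5 had the smallest p in burn blood. Its lowest, median and highest intensities were 53.5, 56.4 and 61.0 in x arrays, against 81.3, 138 and 208 in c arrays. The x arrays spanned a narrow range and all lay below all c arrays. Their values lie between the floor of this set, 27.3, and the lowest median intensity of its arrays, 120. The difference was -1.13 ± 0.08 (2.18-fold lower in x, limma, adjusted p = 1.1e-08), and it was -0.87 ± 0.11 within letter E and -1.39 ± 0.09 within letter A (adjusted p = 0.00118 and 3.0e-06). The difference between the letters in this effect was 0.52 ± 0.15 and did not pass (adjusted p = 0.184).

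In trauma-hemorrhage spleen, Cxcr5 was higher in x, opposite to its direction in burn blood. Its intensity was 672, 673, 674, 713 and 789.7 in x arrays, against 297, 343, 482, 487, 499.96 and 526.2 in c arrays. Every x array lay above every c array (0.66 ± 0.12, limma, adjusted p = 6.9e-04). In this set, 10 of 20 B cell probe sets were lower in x and none higher. Among them, Cr2, the complement receptor of B cells and follicular dendritic cells, differed by -1.38 ± 0.13. In the other 4 sets Cxcr5 was not past the threshold, with differences of 0.12 ± 0.11 in LPS blood, 0.11 ± 0.16 in trauma-hemorrhage blood, 0.01 ± 0.14 in burn spleen and 0.23 ± 0.14 in LPS spleen (limma, adjusted p = 0.441, 0.595, 0.985 and 0.660). With the actin ratio as a covariate, the LPS blood difference was -0.46 ± 0.34 (adjusted p = 0.375).

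Ccr7 was lower in x in burn blood and higher in x in LPS blood. In burn blood its lowest, median and highest intensities were 245, 383 and 470.04 in x arrays, against 306, 541 and 831 in c arrays. The ranges overlapped, and the difference was -0.63 ± 0.13 (1.55-fold lower in x, limma, adjusted p = 0.00132). It was -0.94 ± 0.17 within letter A (adjusted p = 0.00234) and -0.32 ± 0.17 within letter E (adjusted p = 0.395).

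In LPS blood, Ccr7 intensity was 295, 403 and 620.1 in x arrays at its lowest, median and highest, against 237, 300.2 and 338 in c arrays. Of the 10 x arrays, 9 lay above all c arrays (0.45 ± 0.09, limma, adjusted p = 6.0e-04). With the actin ratio as a covariate the difference was 0.27 ± 0.30 (adjusted p = 0.567). Within letter E it was 0.36 ± 0.09 and within letter A it was 0.55 ± 0.15 (adjusted p = 0.0173 and 0.0411).

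Ccr7 was not called in spleen. When 1 array at a time was left out, it stayed so in 10 of 11 fits in burn and in trauma-hemorrhage spleen. In burn spleen, its intensity was 339.9, 386, 425, 431, 434 and 599 in x arrays, against 174, 315, 319, 345 and 454 in c arrays (0.45 ± 0.19, limma, adjusted p = 0.127). Without c replicate 3, the highest c array, the difference was 0.60 ± 0.18 (adjusted p = 0.0395). In trauma-hemorrhage spleen, Ccr7 intensity was 264, 384, 497, 516 and 597 in x arrays, against 305, 323, 328, 349, 432 and 436 in c arrays (0.29 ± 0.16, adjusted p = 0.217). Without x replicate 3, the lowest array, it was 0.45 ± 0.12 (adjusted p = 0.0119). In LPS spleen the difference was -0.19 ± 0.15 (adjusted p = 0.811), and in trauma-hemorrhage blood it was 0.04 ± 0.10 (adjusted p = 0.739).

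Cxcr4 was higher in x in both tissues of burn mice and lower in x in trauma-hemorrhage spleen. Its window, chr1:128592250-128592549 on the minus strand, holds 2 overlapping matches to the TATA box on opposite strands, 3 GC boxes and 1 AGAACA core. Of all promoters, 13.6% hold the TATA box, 35.7% the GC box and 19.0% the AGAACA core:
Cxcr4: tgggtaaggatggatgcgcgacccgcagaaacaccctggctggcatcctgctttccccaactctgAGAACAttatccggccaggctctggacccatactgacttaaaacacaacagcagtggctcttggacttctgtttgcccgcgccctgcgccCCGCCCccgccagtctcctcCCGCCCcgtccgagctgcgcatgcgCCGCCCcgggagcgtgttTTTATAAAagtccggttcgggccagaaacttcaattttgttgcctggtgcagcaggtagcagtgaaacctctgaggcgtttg

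In burn spleen, Cxcr4 intensity was 309, 329, 378, 397, 415 and 423 in x arrays, against 94.7, 105, 128, 160.3 and 200.4 in c arrays. The codes did not overlap, and this was the largest difference of any member in spleen, 1.39 ± 0.15 (2.62-fold higher in x, limma, adjusted p = 1.1e-05). In burn blood, its lowest, median and highest intensities were 300.2, 350.03 and 423 in x arrays, against 101, 195 and 379 in c arrays. Only 2 of the 9 x arrays lay above the highest c array, and the difference was 0.79 ± 0.17 (limma, adjusted p = 0.00275). Within single letters it kept its direction and did not pass, at 0.97 ± 0.24 in letter E and 0.61 ± 0.20 in letter A (adjusted p = 0.0555 and 0.0614).

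In trauma-hemorrhage spleen, Cxcr4 intensity was 133, 145, 202, 218 and 374 in x arrays, against 252, 346, 352, 391.8, 418 and 467 in c arrays. Of the 5 x arrays, 4 lay below all c arrays, and the fifth, replicate 2, lay within their range (-0.75 ± 0.20, limma, adjusted p = 0.0106). In LPS blood, Cxcr4 differed by -0.28 ± 0.12 and did not pass (adjusted p = 0.0978). With runs of title numbers as a block it was -0.28 ± 0.10 and passed (adjusted p = 0.0346). It also passed without c replicate 1 of letter A (-0.33, adjusted p = 0.0380) or without x replicate 5 of letter E (-0.33, adjusted p = 0.0499). It did not pass in 20 of 22 fits that each left out 1 array. With the actin ratio as a covariate it was -0.81 ± 0.40 and did not pass (adjusted p = 0.182). The differences of 0.17 ± 0.14 in trauma-hemorrhage blood and 0.35 ± 0.15 in LPS spleen were not past the threshold (adjusted p = 0.320 and 0.377).

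**Figure D3:**
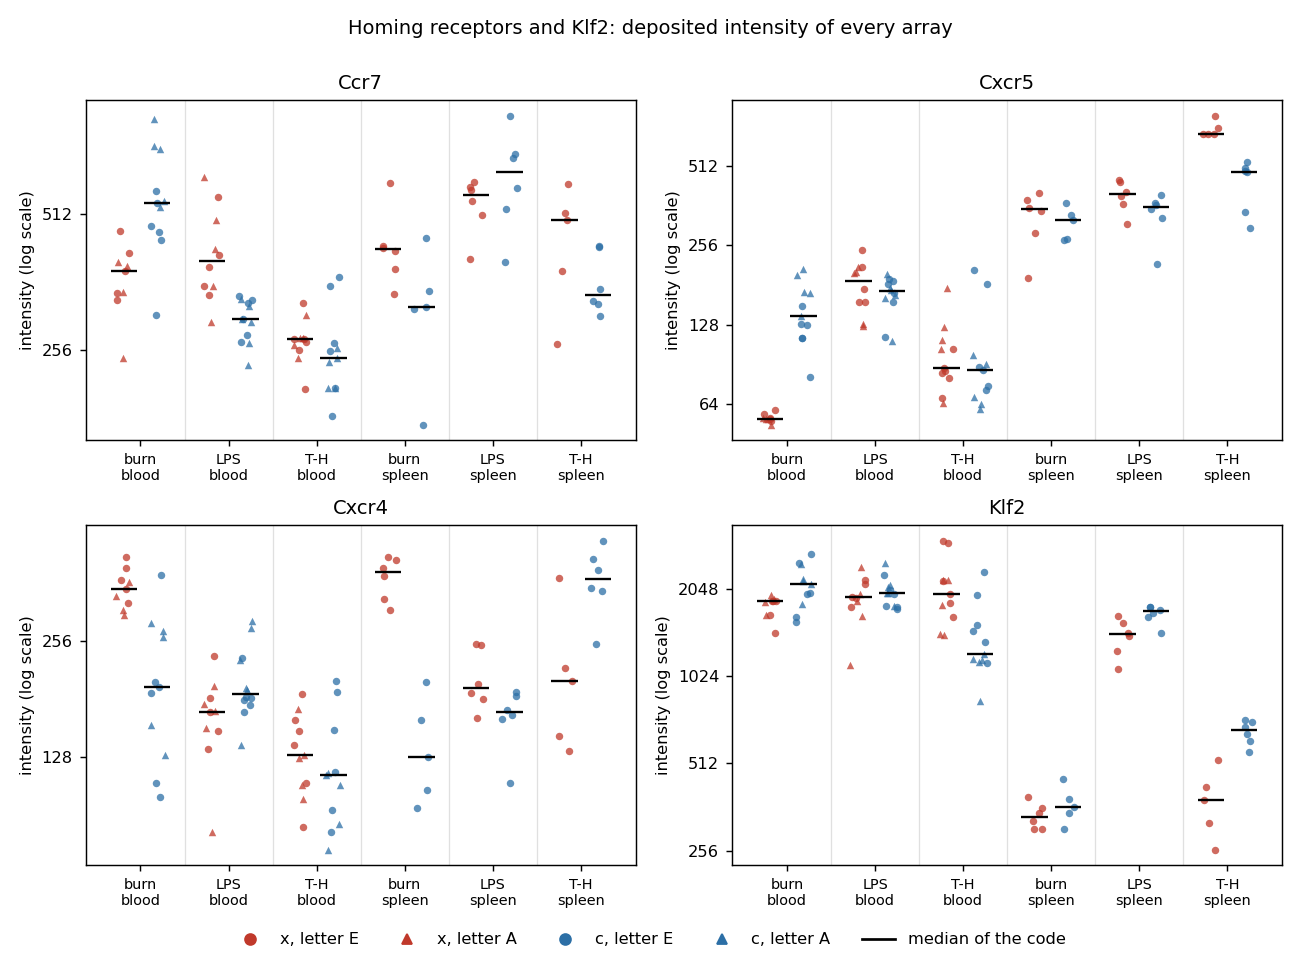
Deposited intensity (log scale) of Ccr7, Cxcr5, Cxcr4 and Klf2 in every array, x left of c in each set, with circles for letter E, triangles for letter A and a line at the median of each code. The 9 x arrays of burn blood sit between 53.5 and 61.0 for Cxcr5, below all c arrays, and the 6 x arrays of burn spleen sit between 309 and 423 for Cxcr4, above all c arrays.

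Klf2 was lower in x in burn blood and in trauma-hemorrhage spleen. Its window, chr8:72318812-72319111 on the plus strand, holds 2 GC boxes and 1 match to the MEF2 core, which reads the same on both strands and which 0.545% of promoters hold:
Klf2: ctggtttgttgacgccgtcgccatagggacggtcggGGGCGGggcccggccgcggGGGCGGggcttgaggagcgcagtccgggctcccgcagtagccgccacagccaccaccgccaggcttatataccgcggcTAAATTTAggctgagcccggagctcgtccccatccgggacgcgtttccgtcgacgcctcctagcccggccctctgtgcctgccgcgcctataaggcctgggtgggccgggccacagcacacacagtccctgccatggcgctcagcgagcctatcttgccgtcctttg

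In trauma-hemorrhage spleen, Klf2 intensity was 258, 318, 383, 423 and 524 in x arrays, against 559, 612, 648, 684, 713 and 720.3 in c arrays. All x arrays lay below all c arrays (-0.74 ± 0.14, 1.67-fold lower in x, limma, adjusted p = 8.2e-04). In burn blood, the lowest, median and highest intensities were 1439, 1852 and 1952 in x arrays, against 1575, 2129 and 2703 in c arrays. These ranges overlapped, and the difference was smaller, -0.32 ± 0.08 (adjusted p = 0.00498). It did not pass within letter E (-0.30 ± 0.13, adjusted p = 0.268) or on values that were not normalized (-0.23 ± 0.09, adjusted p = 0.105).

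In LPS spleen, the 6 Klf2 intensities of x arrays ran from 1083 to 1651 with a median of 1428, against 1444 to 1776 with a median of 1712 in the 6 c arrays. The difference of -0.32 ± 0.09 just missed the threshold (limma, adjusted p = 0.0666), and without x replicate 3 it was -0.37 ± 0.08 (adjusted p = 0.0282). With runs of title numbers as a block it stayed at -0.32 ± 0.07 and passed (adjusted p = 0.0314), and it also passed with a filter at the 50th percentile (adjusted p = 0.0476). In burn spleen Klf2 differed by -0.16 ± 0.10 (adjusted p = 0.284), and in LPS blood by -0.11 ± 0.07 (adjusted p = 0.299).

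Klf2 in trauma-hemorrhage blood depended on the scaling. The deposited intensities had a lowest, median and highest value of 1423, 1964 and 2999.8 in x arrays, against 839.7, 1219 and 2339 in c arrays. On these values as deposited, the difference was 0.58 ± 0.13 (limma, adjusted p = 0.00131). After quantile normalization within blood it was 0.13 ± 0.09 (95% interval -0.05 to 0.32, adjusted p = 0.241). The scaling moved the array-wide split in this set too: 41.18% of calls were higher in x after normalization, against 52.31% without it.

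**Figure D4:**
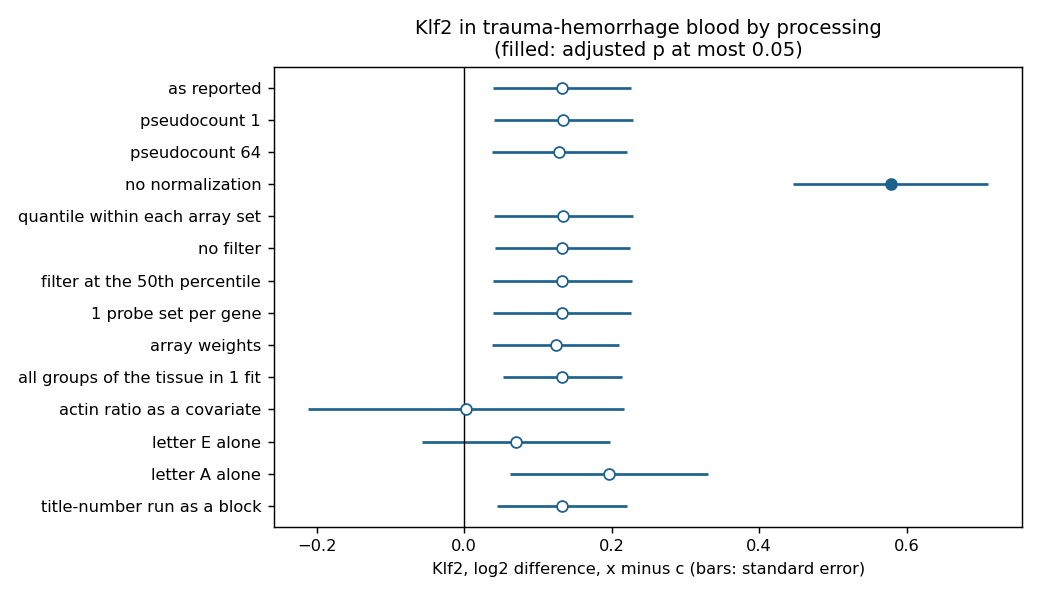
Klf2 in trauma-hemorrhage blood under each processing alternative, as the log2 difference x minus c with bars of 1 standard error; filled points have an adjusted p of at most 0.05. Values that were not normalized gave 0.58, and all other alternatives gave 0.00 to 0.20.

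The Ccl19 probe set was called in 2 blood sets, in opposite directions. In LPS blood, its lowest, median and highest intensities were 147, 170.1 and 203 in x arrays, against 121, 147 and 161 in c arrays. The difference was 0.24 ± 0.06 (limma, adjusted p = 0.00306). In trauma-hemorrhage blood they were 115, 124 and 139.95 in x arrays, against 134, 163 and 184 in c arrays, and 8 of the 11 x arrays lay below all c arrays (-0.30 ± 0.05, adjusted p = 5.8e-05). With the actin ratio as a covariate, the trauma-hemorrhage difference stayed at -0.30 ± 0.12 with an adjusted p of 0.320, and the LPS difference was 0.68 ± 0.16 (adjusted p = 0.0153). In burn blood it differed by -0.17 ± 0.07 (adjusted p = 0.0896). Without c replicates 4 and 5 of letter E, the arrays that stood apart, this was -0.18 ± 0.06 (adjusted p = 0.0209). In spleen the probe set was not called, at -0.22 ± 0.12 for burn, -0.08 ± 0.07 for LPS and -0.21 ± 0.18 for trauma-hemorrhage (adjusted p = 0.210, 0.862 and 0.445).

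Neither Cxcl13 probe set was called in any of the 6 sets, and their spread differed in blood. Probe set 1417851_at ranged more widely. In burn blood its lowest, median and highest intensities were 44.8, 75.6 and 453 in x arrays, against 41.1, 183 and 862 in c arrays (-0.78 ± 0.52, limma, adjusted p = 0.356). In trauma-hemorrhage blood they were 42.9, 83.4 and 1177 in x arrays, against 28.9, 60.1 and 209 in c arrays (0.66 ± 0.39, adjusted p = 0.163). The floor of that set was also 28.9. In LPS blood the difference was 0.37 ± 0.49 (adjusted p = 0.625), and with the actin ratio as a covariate it was -2.88 ± 1.5 (adjusted p = 0.202). Probe set 1448859_at stayed within narrower bounds, from 181 to 253 in x arrays and 183 to 305 in c arrays of burn blood (-0.16 ± 0.10, adjusted p = 0.282). In spleen the differences of both probe sets lay between -0.17 and 0.19.

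Leaving out the 2 burn blood c arrays that stood apart kept the 5 calls of that set. These 2 arrays had the lowest B cell sums of the c arrays, nearest to those of x arrays. Leaving them out therefore tends to widen the differences and is no independent support for the calls. Ltb was then -1.69 ± 0.14, Cxcr5 -1.19 ± 0.06, Ccr7 -0.73 ± 0.11, Cxcr4 0.93 ± 0.15 and Klf2 -0.35 ± 0.08 (limma, adjusted p = 1.9e-08, 3.6e-11, 5.3e-05, 6.9e-05 and 0.00253).

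The letters were the second question in blood. No member differed between E and A arrays, averaged over the codes, in any model, where limma called 0% of all probe sets in burn and LPS blood and 0.0189% in trauma-hemorrhage blood. An unadjusted p under 0.05 was given to 893 of 15838 probe sets in burn blood, 839 in LPS blood and 1633 in trauma-hemorrhage blood. Among the members these were Cxcr5 (-0.22 ± 0.08) and Ltb (-0.30 ± 0.14) in burn blood and Klf2 (0.29 ± 0.09) in trauma-hemorrhage blood. No member was called for a difference between the letters in x minus c either, where 0.0126% of probe sets were called in burn blood and 0% in LPS and trauma-hemorrhage blood. The unadjusted p was under 0.05 for 1865, 1150 and 1243 probe sets in these 3 sets, among them Cxcr5 (0.52 ± 0.15) and Ccr7 (0.63 ± 0.25) in burn blood and Cxcr5 (-0.82 ± 0.32) in trauma-hemorrhage blood.

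The third question was whether x minus c differed between blood and spleen. It was tested as a contrast on letter E arrays, over 13433 probe sets that passed the filter in both tissues, of which 3.4% were called in burn, 8.54% in LPS and 25.5% in trauma-hemorrhage. No fit of this contrast had the actin ratio as a covariate. That ratio separated the codes in LPS and trauma-hemorrhage blood and overlapped between them in every spleen set. A difference between the tissues in LPS and trauma-hemorrhage therefore cannot be told apart from RNA integrity. In burn, 2 members were called. Ltb was lower in x in both tissues, by more in blood (-0.88 ± 0.18, limma, adjusted p = 0.00543). Cxcr5 differed by -0.87 ± 0.20 (adjusted p = 0.0143), being lower in x in blood and not past the threshold in spleen. Ccr7 was at -0.76 ± 0.28 and did not pass (adjusted p = 0.134), while with blood averaged over both letters it was -1.08 (adjusted p = 0.00304). In LPS, 1 member was called, Ltb (0.68 ± 0.15, adjusted p = 0.00340), higher in x in blood and not past the threshold in spleen. Ccr7 was at 0.55 ± 0.18 there (adjusted p = 0.0670), and at 0.66 ± 0.16 without spleen c replicate 6 (adjusted p = 0.00686). The Ccl19 probe set was at 0.32 ± 0.11 (adjusted p = 0.0665). It was at 0.35 ± 0.11 without blood x replicate 5 of letter E and at 0.37 ± 0.10 without spleen x replicate 6 (adjusted p = 0.0382 and 0.0244). Cxcr4 was at -0.46 ± 0.19 (adjusted p = 0.148), and at -0.56 ± 0.19 without that blood array (adjusted p = 0.0484). Of 23 fits that each left out 1 array, Ccr7 and Cxcr4 did not pass in 22, and the Ccl19 probe set in 21.

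In trauma-hemorrhage, 3 members were called between the tissues. Ltb (1.06 ± 0.28) and Klf2 (0.81 ± 0.19) were lower in x in spleen and not past the threshold in blood (limma, adjusted p = 0.00760 and 0.00445). Cxcr5 differed by -0.97 ± 0.27 (adjusted p = 0.0117), being higher in x in spleen. With blood averaged over both letters, Cxcr5 was -0.55 ± 0.25 and no longer passed (adjusted p = 0.0734). Cxcr4 differed by 0.76 ± 0.31 on letter E arrays (adjusted p = 0.0739) and by 0.92 ± 0.26 averaged over letters (adjusted p = 0.00553). On letter E arrays, leaving out 1 array at a time gave 0.64 to 0.95 for Cxcr4, and 18 of 23 fits did not pass. It passed, at 0.86 to 0.95, when any 1 of 5 arrays was left out. These were blood c replicates 1 and 3, blood x replicate 6, spleen c replicate 1 and spleen x replicate 2. Without normalization, 70.16% of all calls of this contrast were positive, against 55.29% with it.

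**Figure D5:**
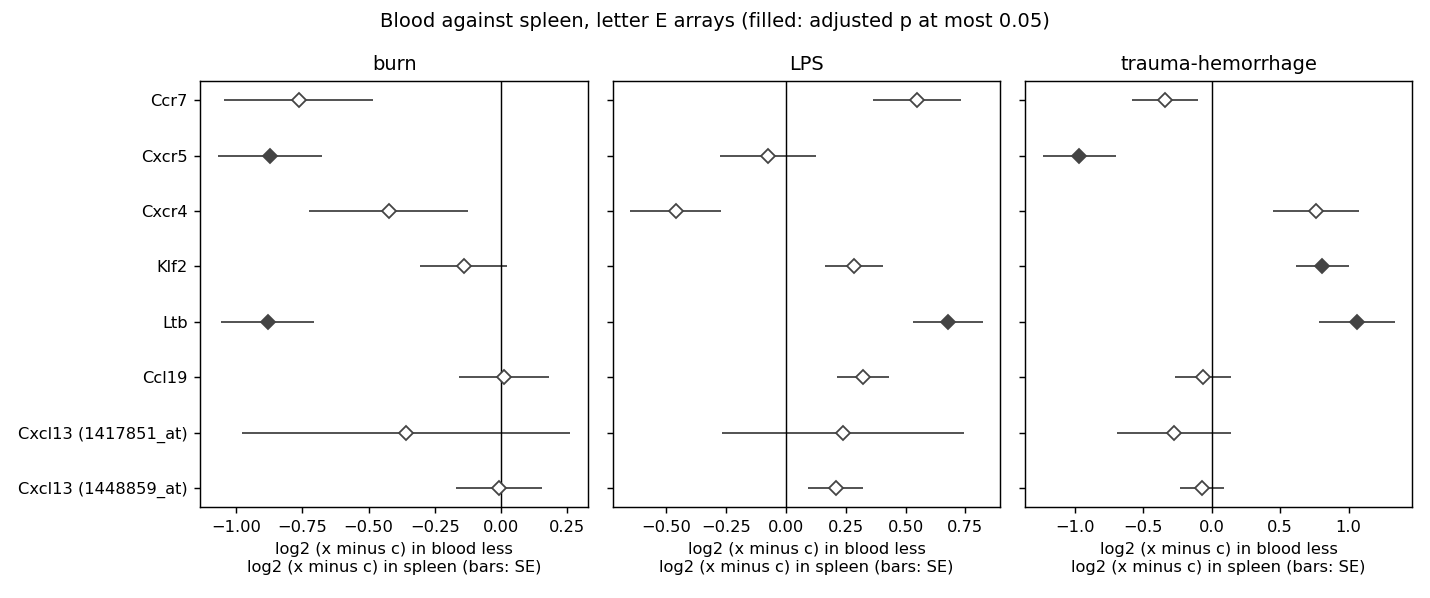
Difference x minus c in blood less that in spleen, letter E arrays, for each member in burn, LPS and trauma-hemorrhage, in log2 intensity with bars of 1 standard error; filled points have an adjusted p of at most 0.05. Ltb is at -0.88 for burn, 0.68 for LPS and 1.06 for trauma-hemorrhage.

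Further genes of the same pathways were tested from lists set by function. Of all probe sets, 7.65% were called higher and 10.4% lower in burn blood, 13.5% and 12.8% in LPS blood. The shares were 21.3% and 30.5% in trauma-hemorrhage blood and 9.65% and 7.92% in burn spleen. They were 2.39% and 0.909% in LPS spleen and 10.7% and 16.7% in trauma-hemorrhage spleen. Among other homing receptors and adhesion molecules in burn blood, 1 of 9 tested probe sets was higher in x and 4 were lower. These included Ccr6, a receptor of B cells and effector T cells (-0.86 ± 0.08, limma, adjusted p = 2.0e-07), Itgb7, the integrin subunit of gut homing (-0.24 ± 0.04), and S1pr1, the egress receptor (-0.29 ± 0.06). In trauma-hemorrhage spleen, 1 of 11 was higher and 6 were lower, among them Itgb7 (-0.94 ± 0.09) and Cxcr3, a receptor of effector T cells (-0.53 ± 0.07). In LPS spleen, 0 of 11 were called. In LPS blood, 2 of 9 were higher and 2 lower, in trauma-hemorrhage blood 2 and 0, and in burn spleen 1 and 1 of 11.

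Of the ligands and addressins in burn spleen, 5 of 8 probe sets were lower in x and 0 higher, where 7.92% of all probe sets were lower. These 5 stand for 3 genes, Vcam1 with 3 probe sets, Icam1 and Cxcl12. Vcam1, the adhesion molecule of endothelium and spleen macrophages, differed by -0.88 ± 0.15, -0.46 ± 0.11 and -0.38 ± 0.11 on its probe sets (limma, adjusted p = 9.1e-04, 0.00618 and 0.0274). Icam1, the ligand of leukocyte integrins, differed by -0.45 ± 0.12 there, and by 0.96 ± 0.11 in LPS spleen, 0.77 ± 0.07 in trauma-hemorrhage spleen and 0.84 ± 0.20 in LPS blood. In trauma-hemorrhage blood, 6 of 10 were lower and 1 higher, with Cxcl12, the ligand of Cxcr4, at -0.26 ± 0.05. No ligand was called in burn blood, and 1 was in LPS blood and in LPS spleen, Icam1 in both.

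The list of lymphotoxin and non-canonical NF-kB signaling had 5 of 17 probe sets higher and 1 lower in LPS blood, among them Relb, an NF-kB subunit of that pathway (0.92 ± 0.12, limma, adjusted p = 1.3e-05), and Tnfsf14, which encodes LIGHT, another ligand of the lymphotoxin beta receptor (0.51 ± 0.10). In LPS spleen, 3 of 13 were higher and 0 lower, with Tnfrsf1b, a TNF receptor, at 0.70 ± 0.13. In burn blood, 1 of 17 was higher and 2 lower, including Tnfrsf13c, the BAFF receptor of B cells (-0.82 ± 0.12). In burn spleen, 1 of 13 was higher and 2 lower, including Lta, the lymphotoxin subunit that pairs with Ltb (-0.52 ± 0.13). In trauma-hemorrhage spleen, 4 of 13 were higher and 2 lower, with Tnfrsf13c at -1.06 ± 0.09. In trauma-hemorrhage blood, 4 of 17 were higher and 5 lower, against 21.3% and 30.5% of all probe sets.

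Of the list for lymphoid tissue inducer cells and spleen organization, 4 of 8 probe sets were higher and 0 lower in burn spleen, led by Il7r, the interleukin 7 receptor (1.67 ± 0.18 on the probe set of smallest p). In the list of KLF factors with Foxo1 and Foxp1, 3 of 23 probe sets were higher and 7 lower in burn blood, and 4 of the 7 belong to Foxp1. Klf3 had the smallest p and was higher in x (0.49 ± 0.07, limma, adjusted p = 7.0e-05). Foxo1, a factor known to drive Klf2 and Ccr7 in T cells, differed by -0.53 ± 0.08 on its probe set of smallest p (limma, adjusted p = 1.6e-04). In trauma-hemorrhage spleen, 2 of 22 were higher and 4 lower, including Klf3 (-0.71 ± 0.10 and -0.67 ± 0.11). In the inducer cell list, 2 of 10 were higher and 0 lower in burn blood, 2 and 1 in LPS blood, 5 and 2 in trauma-hemorrhage blood, and 2 of 8 higher in each of the other spleen sets. In the KLF list, 5 of 23 were higher and 6 lower in LPS blood, 3 and 3 in trauma-hemorrhage blood, 6 and 2 of 22 in burn spleen, and 0 and 2 in LPS spleen.

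Some markers of lymphocytes and neutrophils were called in the same sets, and their part in the member results was not tested. In burn blood, 14 of 17 B cell probe sets were lower in x and 0 higher, with summed intensities of 6654 to 8751 in x arrays and 7777 to 18376 in c arrays. The 2 c arrays that stood apart had 7777 and 10624, and the other c arrays 13654 to 18376. Of the T cell probe sets there, 1 of 16 was higher and 5 lower, and of the neutrophil probe sets 8 of 15 were higher and 0 lower. In burn spleen, 9 of 20 B cell probe sets were lower and 0 higher (16301 to 19302 in x arrays, 20145 to 24758 in c arrays). In that set 8 of 20 T cell probe sets were higher and 0 lower (7354 to 8944 in x arrays, 4226 to 6542 in c arrays), and 17 of 20 of monocytes and macrophages were lower. Of the 15 neutrophil probe sets, 1 was higher and 2 were lower. Over all probe sets, 7.65% were higher and 10.4% lower in burn blood, and 9.65% and 7.92% in burn spleen.

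In trauma-hemorrhage spleen, 10 of 20 B cell and 11 of 20 T cell probe sets were lower in x and none higher. The B cell sums were 17225 to 22221 in x arrays and 24462 to 29031 in c arrays, and the T cell sums 4539.7 to 6021 in x arrays and 7039.5 to 8714 in c arrays. Of the 15 neutrophil probe sets, 6 were higher and 0 lower there (14308 to 21736 in x arrays, 7728 to 15677 in c arrays). In LPS blood, 13 of 15 neutrophil probe sets were higher and 0 lower. Of 17 B cell probe sets there, 2 were higher and 6 lower, and 2 of 16 T cell probe sets were lower. Of all probe sets in LPS blood, 13.5% were higher and 12.8% lower. In trauma-hemorrhage blood, 0 of 17 B cell probe sets were higher and 5 lower, and of 16 T cell probe sets 3 were higher and 4 lower. Of 15 neutrophil probe sets, 7 were higher and 2 lower. In that set 21.3% of all probe sets were higher and 30.5% lower. In LPS spleen, 2 of 20 B cell and 2 of 20 T cell probe sets were lower and none higher, while 7 of 15 neutrophil probe sets were higher and 0 lower (22068 to 33244 in x arrays, 11065 to 24392 in c arrays). Over all probe sets, 2.39% were higher and 0.909% lower in LPS spleen, and 10.7% and 16.7% in trauma-hemorrhage spleen.

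Likeness to other genes was described by Pearson's r of log2 values less the mean of their set, so differences between the codes are part of it and arrays of a set share their processing. Over 64 blood arrays and 9862 genes, Cxcr5 was most like Igkv8-30 (0.87), Gimap1 (0.87) and Cd79a (0.85), and Ccr7 most like Nop53 (0.83), Tspan32 (0.82) and H2-DMa (0.82). Ltb was most like Tnfrsf13b (0.83), Anxa6 (0.83) and Arpc5l (0.82), Cxcr4 like Pcf11 (0.75), Zcchc8 (0.75) and Med26 (0.73), and Klf2 like Zfp36l1 (0.65), Apeh (0.65) and Mrpl43 (0.64). Over 34 spleen arrays and 9642 genes the closest genes were others. Ltb was most like Cd55 (0.90), Lpcat1 (0.89) and Lasp1 (0.89), and Cxcr4 like Ddit4 (0.85), Tsc22d3 (0.85) and Zfp472 (0.80). Klf2 was most like Bcl9l (0.85), Tob1 (0.82) and Ccng2 (0.81), Cxcr5 like Sptlc2 (0.82), Rars (0.81) and Kri1 (0.77), and Ccr7 like Ep400 (0.79), Sec31a (0.76) and Sidt1 (0.76). For the ligands, r reached 0.84 in blood (the Ccl19 probe set and Dhx32) and 0.72 in spleen (Cxcl13 probe set 1448859_at and Rnf207).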

How the data were processed

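The deposited values were linear intensities, 1 per probe set and array, in the series' value table. The authors' computation and scaling are not given in the sources used here. Samples were grouped by model, tissue, code and letter of their titles into 18 groups of 4 to 6 arrays. The 64 control probe sets were left out. Every probe set was kept on its own and named through the platform's gene table, in which 20380 probe sets have 1 symbol, 691 have several and 1555 have none. Values were taken as log2(intensity + 16) and quantile normalized within each tissue. A probe set was tested where its mean reached the 30th percentile of its tissue. Each set was fitted alone with limma 3.58.1 in R 4.3.3 (1 term per group, eBayes with a trend, two-sided), with Benjamini-Hochberg adjustment over all probe sets tested at 0.05. Fold changes are on the log2(intensity + 16) scale. Named genes were all members, up to 3 called genes of smallest p per list and comparison, and the 3 genes most like each member. Members and lists were chosen with earlier results of these data known. The number of arrays limits the precision.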

Additional observations from a re-analysis of the deposited data

Results flagged for a closer look

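Of 144 groups of 4 to 6 arrays (8 probe sets in 18 groups), 10 held an array whose gap to the nearest other, as a share of the range, exceeded Dixon's 95% value; chance gives about 1 in 20. The gap and range were taken on normalized log2 values. Values printed below are deposited intensities, on which the same share can differ and be smaller.

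For Ccr7, the LPS spleen x array 2 stood at 408, against 509 to 603 in the other x arrays. For Cxcr4, the LPS blood x array 2 of letter A stood at 82.0 (others 152 to 196), the c array 5 of letter E at 232 (others 168 to 183), and the LPS spleen c array 1 at 110.1 (others 161 to 189). For Cxcr5, the LPS blood c array 6 of letter E stood at 115 (others 156 to 190.04), and the LPS spleen c array 6 at 217 (others 325 to 395). For Klf2, the trauma-hemorrhage blood c array 3 of letter A stood at 839.7 (others 1143 to 1219). For Ltb, the burn spleen c array 1 stood at 1355 (others 1589 to 1796), on the side of the x arrays and still above all of them. For Cxcl13, the burn blood x array 1 of letter A stood at 453 on probe set 1417851_at (others 44.8 to 61.3), and the LPS blood c array 6 of letter E at 314 on probe set 1448859_at (others 247 to 274).

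The difference between x and c differed between blood and spleen, by limma's contrast on letter E arrays, for Cxcr5, Klf2 and Ltb, with 6 calls in all. In burn these were Cxcr5 (-0.87) and Ltb (-0.88), in LPS Ltb (0.68), and in trauma-hemorrhage Cxcr5 (-0.97), Klf2 (0.81) and Ltb (1.06).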

How the results depend on the processing

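Alternatives were pseudocounts of 1 and 64, other scalings and filters, array weights, larger fits, single letters, a block of title-number runs, the actin ratio as a covariate and leaving out each array in turn. No paired analysis was possible because the titles carry no replicate numbers shared between groups. The number of member probe sets called moved as follows, and it moved in no other comparison unless an array was left out. In burn blood it was 2 with letter E alone, against 5, and 4 to 6 in every other alternative. In LPS blood it was 1 with the actin covariate, against 3, and Ltb then was -0.031, against 0.51. It was 2 with letter A alone and 4 with the run block. In trauma-hemorrhage blood it was 2 without normalization and 0 with the actin covariate, against 1. In LPS spleen it was 1 (Klf2) with a filter at the 50th percentile or the run block, and 0 to 1 when an array was left out, against 0. Between blood and spleen in LPS it was 2 with a pseudocount of 64, 4 with blood averaged over letters, 4 with array weights and 1 to 3 when an array was left out (3 without blood x array 5 of letter E), against 1. In burn it was 3 with letters averaged or with array weights, against 2. Every call of a member, in these comparisons, kept its direction and threshold when any array was left out. Of the recomputed member differences, 3177 kept their side of the threshold, 33 passed newly and 9 no longer passed. A further 1 changed sign with a call in at least 1 of the fits. The 3177 include differences that changed sign while neither fit was called, as for Cxcr5 in LPS blood with the actin covariate. They also include differences not past the threshold in either fit, such as all those of the letter comparisons. The 3177 therefore does not measure how well the calls held.

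Over all probe sets, calls in burn blood numbered 2857, against 401 with letter E alone and 4688 with array weights. In LPS blood they numbered 4160, against 1750 with the actin covariate, 2496 with letter E and 1115 with letter A. In trauma-hemorrhage blood they numbered 8203, against 26 with the actin covariate and 3413 with letter E. Between tissues, 457 calls in burn became 1442 with array weights, 2075 with letters averaged and 273 to 853 when an array was left out. The 1147 in LPS became 2553 with weights and 1740 without blood x array 5 of letter E, and the 3422 in trauma-hemorrhage became 5444 in 1 alternative. The causes were not tested.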
